A study of Homo sapiens with 24 samples.

Results

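The transcript response of TEPA-treated SH-SY5Y cells to interferon gamma (IFN) was read from 6 of 24 RNA-sequencing libraries, 3 from cells given TEPA together with IFN (TEPA+IFN libraries) and 3 from cells given TEPA without IFN (TEPA libraries). SH-SY5Y is an established human neuroblastoma cell line. TEPA is a polyamine that binds copper, and it was present in both groups, so the comparison asks for the effect of IFN in cells given this chelator. All 6 libraries came from a 24 h harvest. Other groups of 3 libraries at 24 h served for the tests of differences: untreated cells, cells given IFN alone, cells given dextran-catechin (DC, the other copper-directed compound of the series) and cells given DC with IFN. Copper-treated cells and controls without copper, both harvested at 4 h, also entered the fit of all 24 libraries that gave the p-values. Doses are not in the labels. Whether the 3 libraries of each group came from separate cultures is not stated in the labels, so the p-values measure the spread between libraries, which may be technical, and all of them stand for 1 cell line.

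IFN binds the receptor pair IFNGR1 and IFNGR2, which activates the kinases JAK1 and JAK2. These act on STAT transcription factors, which bind gamma-activated sites (GAS) in DNA and induce, among others, the transcription factor IRF1. IRF1, and a complex that holds STAT2 and IRF9, bind interferon-stimulated response elements (ISRE), and the targets include antiviral proteins, the machinery of antigen presentation, chemokines and the checkpoint ligand PD-L1, encoded by CD274. In neuroblastoma the basal level of MHC class I molecules is known to be low and to rise with IFN.

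Promoter stretches of 8 induced genes are shown because they carry these elements upstream of genes whose levels are given below. Sequences are from RefSeq on GRCh38.p14, 5′ to 3′ along the strand of the gene, and capitals mark the matches to the GAS motif TTCNNNGAA or the ISRE core (GAAA, then 2 bases of any kind, then GAAA) on either strand, overlapping copies included. IRF1 and CD274 show a GAS, CD274 also an ISRE pair, and the others the ISRE core. A further RefSeq start of TAP1, whose stretch is not shown, has a GAS with its first base 189 bases before that start.
IRF1, chr5:132490869-132490917, minus strand: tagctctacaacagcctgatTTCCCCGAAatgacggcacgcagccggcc
CD274, chr9:5450314-5450445, plus strand: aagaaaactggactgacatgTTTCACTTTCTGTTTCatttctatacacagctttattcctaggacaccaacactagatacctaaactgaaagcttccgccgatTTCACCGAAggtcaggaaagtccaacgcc
GBP1, chr1:89065306-89065355, minus strand: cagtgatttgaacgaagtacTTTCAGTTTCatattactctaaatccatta
B2M, chr15:44711353-44711408, plus strand: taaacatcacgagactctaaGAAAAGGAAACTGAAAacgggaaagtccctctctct
TAP1, chr6:32853803-32853858, minus strand: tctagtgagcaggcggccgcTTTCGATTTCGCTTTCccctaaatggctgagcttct
CXCL10, chr4:76023689-76023738, minus strand: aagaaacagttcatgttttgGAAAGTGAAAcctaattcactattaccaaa
ISG15, chr1:1013364-1013419, plus strand: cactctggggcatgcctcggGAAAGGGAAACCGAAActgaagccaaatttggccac
SOCS1, chr16:11256288-11256337, minus strand: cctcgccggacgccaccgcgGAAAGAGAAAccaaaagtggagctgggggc
The first base of the GAS lies 124 bases before the RefSeq start in IRF1 and 125 bases before it in CD274. The promoter table held 15837 promoters for 10804 of the 14654 genes tested (73.7%), and the 250 bases before the start were searched. An ISRE core was found in 25.2% of the 159 promoters of genes called at least 16-fold higher, in 8.4% of the 392 promoters of genes called 2-fold to 16-fold higher, in 1.5% of the 1149 promoters of genes called lower and in 2.5% of all promoters. A GAS was found in 14.5%, 6.9%, 6% and 5.6% of the same sets. The share with an ISRE core was thus highest in the promoters of the genes with the largest rises. A match is a description of the letters and not evidence of binding.

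The TEPA libraries held 28082355 to 35372442 counts and the TEPA+IFN libraries 28706719 to 31987565. Of 10 SH-SY5Y markers, 9 were present in all 6 libraries, ISL1 at 353 to 455 CPM (counts scaled to the TMM-adjusted library total) and HAND2 at 308 to 387 CPM, while TH had 0 counts in all 6. Of 14 leukocyte markers 6 were at 0 counts in all 6 libraries, among them CD3D, CD3E, CD3G, MS4A1 and FCGR3A. The summed level of that list ran from 1.43 to 3.40 CPM with TEPA and from 7.69 to 10.8 CPM with TEPA and IFN, the rise being that of CD68 (0.772, 2.76 and 1.13 against 7.78, 10.3 and 7.38 CPM), while PTPRC, which encodes the pan-leukocyte surface protein CD45, fell from 0.404, 0.345 and 0.377 to 0.105, 0.0662 and 0.0623 CPM, a call lost without TEPA+IFN library 2 or 3. The 7 epithelium markers summed to 0.53 to 0.88 CPM with TEPA and 0.60 to 0.87 CPM with TEPA and IFN, with KRT5 and KRT14 at 0. The 8 Schwann cell markers summed to 59.4 to 68.2 and 61.9 to 65.1 CPM, and the 12 fibroblast and endothelium markers to 561 to 683 and 637 to 787 CPM. TEPA library 2 stood apart from the other TEPA libraries by its GC content trend. Genes over 0.6 GC minus genes below 0.4 GC, as medians of log2 level against the average library, gave -1.02, 0.63 and -0.78 in the TEPA libraries and 0.26, 0.87 and 0.14 in the TEPA+IFN libraries, so this measure moved with the comparison, and its part in the results was not tested beyond the fits named beside them. Library 2 also had the highest value among the untreated (-0.36), IFN (0.90), DC (0.20) and TEPA+IFN libraries, but not among those given DC with IFN (-0.17).

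IFN raised 1067 genes in TEPA-treated cells and lowered 1009. With 14654 genes tested (edgeR's quasi-likelihood test, Benjamini-Hochberg adjusted p under 0.05, a "call" hereafter), 14.2% were called, 7.28% higher and 6.89% lower. The 2 directions were alike in number but not in size: 540 genes (3.69%) rose at least 2-fold, 319 at least 4-fold and 177 at least 16-fold, whereas 193 (1.32%) fell at least 2-fold and 14 at least 4-fold. The median log2 fold change was 1.02 among the genes called higher and -0.60 among those called lower, against -1e-04 over all genes tested. Of the genes called higher, 36 had 0 counts in all 3 TEPA libraries. The 3 and 3 libraries did not overlap in 1064 of the genes called higher and 994 of those called lower, and in 29.8% of all genes tested. The count depended on the fit: 3456 genes were called without TEPA library 2 (1373 higher, 2083 lower), 4222 with the GC trend removed, 1186 with the 6 libraries alone and 4327 with the 6 libraries and the replicate number as a block.

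The CD274 transcript stood at 1.84, 1.11 and 1.54 CPM in the TEPA libraries and 69.99, 60.3 and 44.98 CPM in the TEPA+IFN libraries. The lowest TEPA+IFN library lay far above the highest TEPA library. CD274 (chromosome 9, 5450503 to 5470566, GRCh38, GENCODE 29) had a log2 fold change of 5.30 (adjusted p = 4.02e-10, SE 0.34). IRF1 (chromosome 5, 132481609 to 132490798), a transcription factor that carries the response to a later wave of targets, stood at 1.91, 2.84 and 1.83 CPM in the TEPA libraries and 376, 403 and 277 CPM in the TEPA+IFN libraries. Its log2 fold change was 7.31 (adjusted p = 5.55e-13, SE 0.31). Both of these marker genes of the response were thus higher in all 3 TEPA+IFN libraries, with groups far from overlapping.

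**Figure D1:**
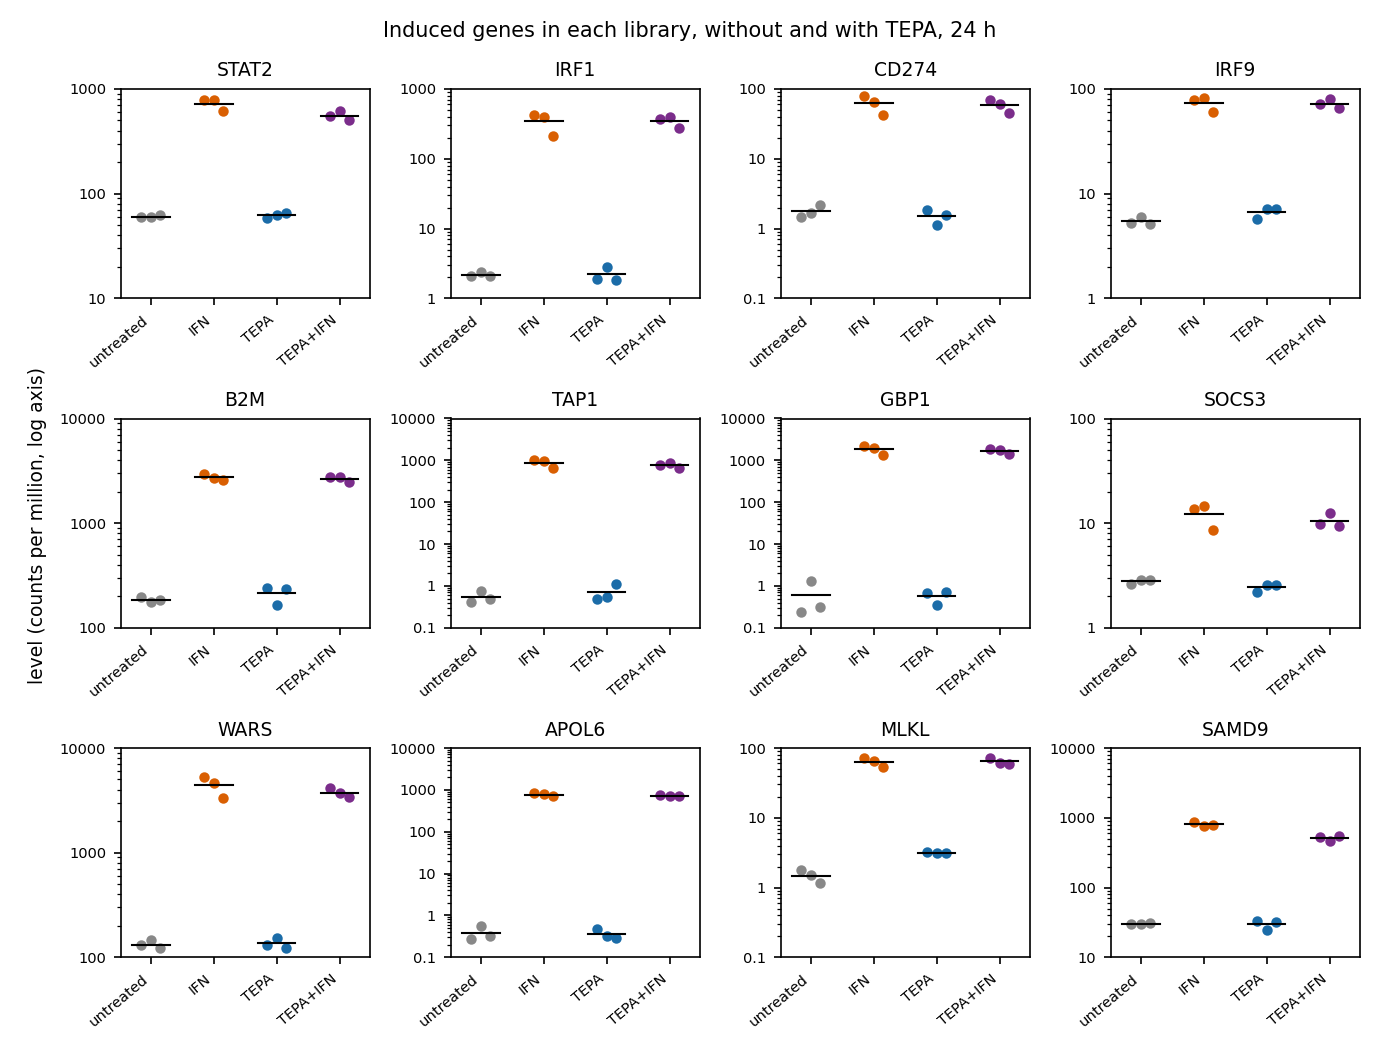
Levels of 12 induced genes in CPM on log axes, 1 point per library and a bar at the mean of 3, in untreated, IFN, TEPA and TEPA+IFN cells at 24 h. In all 12 panels the TEPA+IFN points lie above the TEPA points without overlap. MLKL starts higher with TEPA than in untreated cells.

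Of the receptor and kinase genes only JAK2 passed the test (1 of 5 tested, list median 0.06), beside 14.2% of all genes called. JAK2, which pairs with IFNGR2, stood at 18.5, 12.3 and 17.8 CPM in the TEPA libraries and 68.2, 62.4 and 55.5 CPM in the TEPA+IFN libraries, a log2 fold change of 1.94 (adjusted p = 4.56e-06, SE 0.23). IFNGR1, the ligand-binding chain, stood at 81.4, 59.8 and 75.8 CPM in the TEPA libraries and 79.2, 74.9 and 71.98 CPM in the TEPA+IFN libraries and was not called. IFNGR2, the signalling chain, stood at 59.3, 54.4 and 59.3 CPM in the TEPA libraries and 60.8, 59.7 and 55.9 CPM in the TEPA+IFN libraries, and JAK1 at 345, 295 and 297 CPM in the TEPA libraries and 302, 257 and 322 CPM in the TEPA+IFN libraries, and both overlapped between groups. TYK2, the kinase of the type I receptor, stood at 11.5, 24.8 and 14.3 CPM in the TEPA libraries and 19.2, 24.6 and 18.99 CPM in the TEPA+IFN libraries and was not called. Among 4 receptor chains for type I and type III interferons 3 rose, including IFNAR2 at 0.94 (log2, SE 0.11) and IL10RB at 0.60 (log2, SE 0.09). All 9 interferon ligand genes examined had 0 counts in the 6 libraries.

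Of 6 genes of the STAT family tested, 4 rose. STAT2 (chromosome 12, 56341597 to 56360155), a subunit of the ISRE-binding complex, stood at 58.4, 63.1 and 65.6 CPM in the TEPA libraries and 547, 612 and 502 CPM in the TEPA+IFN libraries, a log2 fold change of 3.15 (adjusted p = 7.09e-15, SE 0.10). STAT3 went from 77.7, 81.2 and 79.7 to 299.7, 304 and 258 CPM (log2 fold change 1.85, SE 0.11). STAT5A was close to absent with TEPA, 3 counts in all, and reached 0.698, 0.629 and 0.654 CPM with IFN, a ratio of 21.8 (95% counting interval 7.12 to 109). The other 2 members were not called.

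Of 9 tested genes in the list of interferon regulatory factors and their partners BATF2 and BATF3, 6 rose and 1 fell (list median 3.45). IRF9, the DNA-binding subunit of the complex with STAT2, stood at 5.70, 7.06 and 7.13 CPM in the TEPA libraries and 71.7, 80.6 and 65.2 CPM in the TEPA+IFN libraries, a log2 fold change of 3.45 (adjusted p = 1.14e-11, SE 0.18). IRF2, which competes with IRF1 for the same sites, stood at 14.3, 14.9 and 13.6 CPM in the TEPA libraries and 59.9, 57.97 and 47.5 CPM in the TEPA+IFN libraries (log2 fold change 1.95, SE 0.13). IRF7 and BATF3 rose from under 0.25 CPM by 5.10 (log2, SE 0.74) and 4.45 (log2, SE 0.58). BATF2, a partner of IRF1, had 2 counts over the TEPA libraries and 43.2, 46.1 and 29.7 CPM with IFN, a ratio of 1956 (95% counting interval 541 to 16162). IRF3 stood at 3.20, 7.16 and 2.81 CPM in the TEPA libraries and 9.87, 15.1 and 7.88 CPM in the TEPA+IFN libraries without overlap but missed the threshold (adjusted p = 0.0781), which it passed in 6 of 15 alternative fits.

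Of 16 tested inhibitors of the pathway 3 rose and 2 fell (list median 0.01), beside 7.28% of all genes called higher and 6.89% lower. USP18, which restrains type I receptor signalling, stood at 5.81, 6.74 and 4.99 CPM in the TEPA libraries and 140.0, 139 and 116 CPM in the TEPA+IFN libraries, a log2 fold change of 4.49 (adjusted p = 1.68e-14, SE 0.15). SOCS3, an inhibitor of JAK kinases, stood at 2.21, 2.57 and 2.58 CPM in the TEPA libraries and 9.84, 12.4 and 9.40 CPM in the TEPA+IFN libraries (log2 fold change 2.10, SE 0.19). SOCS1, the direct inhibitor of JAK2 whose promoter stretch is shown above, had 1 count over the 3 TEPA libraries and 2.51, 3.34 and 1.71 CPM with IFN, a ratio of 249 (95% counting interval 44.2 to 9875). SOCS5 fell from 78.05, 56.2 and 73.2 to 48.9, 48.3 and 46.9 CPM and SOCS4 from 166, 135 and 162 to 112, 103 and 116 CPM. The call of SOCS4 was lost without TEPA library 1 or 3 or TEPA+IFN library 2, and that of SOCS5 without TEPA library 1 or 3 or any 1 TEPA+IFN library. The other 11, further members of the SOCS and PIAS families and protein tyrosine phosphatases, were not called.

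All 31 antiviral interferon-stimulated genes tested rose, with a list median of 7.13. MX2, a GTPase that blocks viral nuclear entry, had 0 counts in all 3 TEPA libraries and 92.7, 103 and 58.2 CPM with IFN, at least 2779-fold higher, taking 3 counts over the group as the floor. OAS2, a synthase of the RNase L activator, stood at 0.0735, 0.0796 and 0.087 CPM in the TEPA libraries and 603, 642 and 382 CPM in the TEPA+IFN libraries, a log2 fold change of 12.65 (adjusted p = 2.64e-14, SE 0.44). IFIT3 stood at 0.699, 0.398 and 0.493 CPM in the TEPA libraries and 1211, 1144 and 998 CPM in the TEPA+IFN libraries (log2 fold change 11.07, SE 0.31), and IFITM1, a membrane protein that blocks viral entry, at 0.0368, 0.0531 and 0.029 CPM in the TEPA libraries and 92.9, 147 and 66.3 CPM in the TEPA+IFN libraries (log2 fold change 11.16, SE 0.60). XAF1 rose by 10.73 (log2, SE 0.30). ISG15, the ubiquitin-like modifier, had 0 counts with TEPA and 0.454, 1.22 and 0.529 CPM with IFN, at least 24.4-fold higher. Its enzymes UBA7 and UBE2L6 rose by 7.29 (log2, SE 0.47) and 4.53 (log2, SE 0.24), and 7 of 8 members of the ISG15 system were called higher.

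Intracellular RNA and DNA sensors rose in 8 of 10 tested cases (median 3.54), led by the RNA helicase IFIH1 (log2 fold change 9.55, SE 0.35) and the DNA-binding protein IFI16 (log2 fold change 9.33, SE 0.44). IFIH1 stood at 0.0735, 0.0796 and 0.145 CPM in the TEPA libraries and 83.9, 80.6 and 71.3 CPM in the TEPA+IFN libraries. The endosomal receptor TLR3 stood at 0.478, 0.398 and 0.522 CPM in the TEPA libraries and 27.1, 25.7 and 27.7 CPM in the TEPA+IFN libraries (log2 fold change 5.84, SE 0.47). The groups did not overlap in either gene.

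Guanylate-binding proteins, GTPases that act on intracellular pathogens, rose in all 6 GBP genes tested, while the related atlastin ATL3 fell. GBP1 stood at 0.662, 0.345 and 0.725 CPM in the TEPA libraries and 1891, 1724 and 1391 CPM in the TEPA+IFN libraries, a log2 fold change of 11.51 (adjusted p = 1.74e-13, SE 0.46). GBP2 stood at 8.53, 10.2 and 8.56 CPM in the TEPA libraries and 326, 262 and 301 CPM in the TEPA+IFN libraries (log2 fold change 5.03, SE 0.18), GBP4 at 6.40, 6.55 and 7.08 CPM in the TEPA libraries and 289.6, 259.7 and 255 CPM in the TEPA+IFN libraries (log2 fold change 5.33, SE 0.21), and GBP3 and GBP5 rose by 8.90 (log2, SE 0.43) and 6.31 (log2, SE 0.72). Reads of such paralogs can be divided between copies, so the share of each is uncertain. Of 6 tested genes in the apolipoprotein L list 5 rose (median 8.37), and APOLD1 was not called. APOL6 stood at 0.478, 0.318 and 0.29 CPM in the TEPA libraries and 756, 718 and 705 CPM in the TEPA+IFN libraries, a log2 fold change of 10.99 (adjusted p = 8.14e-17, SE 0.24), and APOL1, the trypanosome lytic factor, at 0.294, 0.212 and 0.174 CPM in the TEPA libraries and 405, 419 and 367 CPM in the TEPA+IFN libraries (log2 fold change 10.78, SE 0.27). APOL4 had 4.89, 4.43 and 5.42 CPM already with TEPA and 489.5, 453 and 476 CPM with IFN (log2 fold change 6.59, SE 0.15).

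Of 14 tested genes in a list of the ADP-ribosyltransferase family and DTX3L, 8 rose (median 0.41). The large changes were in PARP9, PARP14, PARP10 and DTX3L, a ubiquitin ligase that pairs with PARP9. PARP9 stood at 21.2, 18.4 and 20.1 CPM in the TEPA libraries and 284, 269 and 272 CPM in the TEPA+IFN libraries (log2 fold change 3.79, SE 0.13) and DTX3L at 30.3, 24.3 and 28.2 CPM in the TEPA libraries and 507, 484 and 465 CPM in the TEPA+IFN libraries (log2 fold change 4.14, SE 0.14). Nuclear body genes rose in 4 of 5 cases: SP100 stood at 0.0368, 0.133 and 0.087 CPM in the TEPA libraries and 127, 116 and 104 CPM in the TEPA+IFN libraries, a log2 fold change of 10.26 (adjusted p = 1.43e-15, SE 0.29), and PML rose by 3.25 (log2, SE 0.35). TRIM ubiquitin ligases rose in 10 of 11 cases (median 2.38), TRIM22 from 0.515, 0.584 and 0.638 to 213, 204 and 173 CPM (log2 fold change 8.39, SE 0.24).

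Antigen presentation by MHC class I rose in 18 of 21 tested members, and the 3 members not called were the general chaperones CALR, CANX and PDIA3. B2M (chromosome 15, 44711487 to 44718877), the invariant light chain, stood at 242, 166 and 234 CPM in the TEPA libraries and 2772, 2752 and 2476 CPM in the TEPA+IFN libraries, a log2 fold change of 3.64 (adjusted p = 1.19e-11, SE 0.19). The peptide transporter TAP1 stood at 0.478, 0.557 and 1.13 CPM in the TEPA libraries and 783, 864 and 659 CPM in the TEPA+IFN libraries, a log2 fold change of 10.03 (adjusted p = 5.54e-16, SE 0.26). The heavy chains HLA-B and HLA-C rose by 10.67 (log2, SE 0.41) and 5.44 (log2, SE 0.29), HLA-B from 0.11, 0.0265 and 0.029 to 90.95, 111 and 64.2 CPM. HLA-B had only a few counts in the TEPA libraries, and its SE does not fully reflect that. These genes are polymorphic and alike, so reads may have been divided between them or lost. NLRC5, the transactivator of MHC class I genes, stood at 0.368, 0.451 and 0.232 CPM in the TEPA libraries and 141, 193 and 124 CPM in the TEPA+IFN libraries (log2 fold change 8.74, SE 0.34). The immunoproteasome subunits PSMB8 and PSMB9 rose by 7.41 (log2, SE 0.23) and 10.90 (log2, SE 0.36), with PSMB8 at 0.919, 1.11 and 1.01 CPM in the TEPA libraries and 173, 197 and 154 CPM in the TEPA+IFN libraries. Of 17 constitutive proteasome subunits 4 rose, by much less (median 0.37), beside 7.28% of all genes called higher. With the replicate block that count was 10, and 8 with the GC trend removed. PSMA6 stood at 214, 174 and 208 CPM in the TEPA libraries and 423, 389 and 412 CPM in the TEPA+IFN libraries (log2 fold change 1.04, SE 0.13).

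MHC class II genes rose from near 0. Of 14 tested 12 were called higher (median 5.92, or 3.27 with the 7 genes at 0 counts in TEPA set at their bound). With 0 counts in TEPA those 7 could only come out higher, and 4 more of the 18 members had too few counts to be tested. CIITA, the class II transactivator, had 0 counts with TEPA and 4.43, 4.93 and 2.43 CPM with IFN, at least 129-fold higher. HLA-DRA went from 0 counts to 3.49, 3.14 and 0.685 CPM, at least 78.97-fold higher, with library 3 lower than the others. The invariant chain CD74 stood at 0.11, 0.0265 and 0.058 CPM in the TEPA libraries and 8.51, 8.24 and 3.64 CPM in the TEPA+IFN libraries (log2 fold change 6.70, SE 0.66). In the fit of the 6 libraries alone 7 of 11 tested class II genes were called.

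Ligands of immune checkpoints rose in 8 of 15 tested cases and fell in 2 (median 1.23). Besides CD274, its neighbour PDCD1LG2, which encodes PD-L2, had 3 counts with TEPA and 1.60, 1.16 and 1.59 CPM with IFN, a ratio of 48.04 (95% counting interval 16.1 to 236). TNFRSF14, the ligand of BTLA, had 0 counts with TEPA and 2.20, 3.21 and 1.93 CPM with IFN, at least 80.8-fold higher. CEACAM1 stood at 0.0735, 0.0796 and 0.029 CPM in the TEPA libraries and 8.16, 7.44 and 3.95 CPM in the TEPA+IFN libraries (log2 fold change 6.66, SE 0.56). Chemokines and cytokines rose in 11 of 15 tested cases (median 3.08). Of the 27 members 12 had too few counts to be tested, 8 of them with 0 counts in all 6 libraries. CXCL9, CXCL10 and CXCL11 attract T cells through the receptor CXCR3. CXCL9 had 0 counts with TEPA and 82.9, 52.8 and 50.7 CPM with IFN, at least 2038-fold higher. CXCL10 reached 15.1, 9.93 and 15.04 CPM from 1 count and CXCL11 32.7, 19.1 and 28.3 CPM from 2 counts. CSF1, the macrophage growth factor, stood at 0.919, 1.25 and 1.22 CPM in the TEPA libraries and 34.96, 39.6 and 27.8 CPM in the TEPA+IFN libraries (log2 fold change 4.90, SE 0.27), and the adhesion molecule ICAM1 at 0.441, 0.292 and 0.087 CPM in the TEPA libraries and 52.6, 46.8 and 32.4 CPM in the TEPA+IFN libraries (log2 fold change 7.35, SE 0.41).

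Enzymes of tryptophan use rose in 2 of 8 cases, beside 7.28% of all genes called higher. IDO1, which degrades tryptophan, stood at 0.0735, 0.0265 and 0.058 CPM in the TEPA libraries and 140.0, 111 and 91.4 CPM in the TEPA+IFN libraries, a log2 fold change of 11.03 (adjusted p = 9.18e-11, SE 0.65). WARS, the tryptophanyl-tRNA synthetase, stood at 132, 154 and 122 CPM in the TEPA libraries and 4134, 3682 and 3366 CPM in the TEPA+IFN libraries, a log2 fold change of 4.78 (adjusted p = 5.11e-14, SE 0.18). SLC15A3, a lysosomal peptide transporter, had 0 counts with TEPA and 7.12, 11.3 and 6.91 CPM with IFN, at least 279-fold higher. Complement genes rose in 10 of 12 cases (median 5.48, or 5.07 with 2 genes at their bound), with CFB at 6.38, 6.58 and 4.05 CPM with IFN, from 2 counts with TEPA. The 2 copies of C4 rose too, but their reads cannot be told apart.

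Caspases and cell death genes rose in 13 of 28 cases and 1, the survival gene BCL2, fell (median 0.50). CASP1, the inflammatory caspase, had 1 count with TEPA and 14.4, 13.5 and 12.6 CPM with IFN, a ratio of 1336 (95% counting interval 239 to 52826). CASP4 stood at 1.18, 0.743 and 1.01 CPM in the TEPA libraries and 12.1, 10.8 and 12.8 CPM in the TEPA+IFN libraries (log2 fold change 3.61, SE 0.26) and CASP8 at 0.515, 0.663 and 0.986 CPM in the TEPA libraries and 5.16, 5.46 and 5.51 CPM in the TEPA+IFN libraries (log2 fold change 2.88, SE 0.27). MLKL, the executioner of necroptosis, stood at 3.23, 3.16 and 3.10 CPM in the TEPA libraries and 71.6, 61.6 and 59.6 CPM in the TEPA+IFN libraries, a log2 fold change of 4.34 (adjusted p = 1.58e-13, SE 0.17). The death receptor FAS stood at 6.84, 3.77 and 6.38 CPM in the TEPA libraries and 18.6, 17.5 and 16 CPM in the TEPA+IFN libraries, a log2 fold change of 1.62 (adjusted p = 3.73e-05, SE 0.23). FAS overlaps ACTA2, which also rose (log2 fold change 1.51, SE 0.29), and the strand setting of the counting is not given in the sources used here, so reads of this pair may be mixed.

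**Figure D2:**
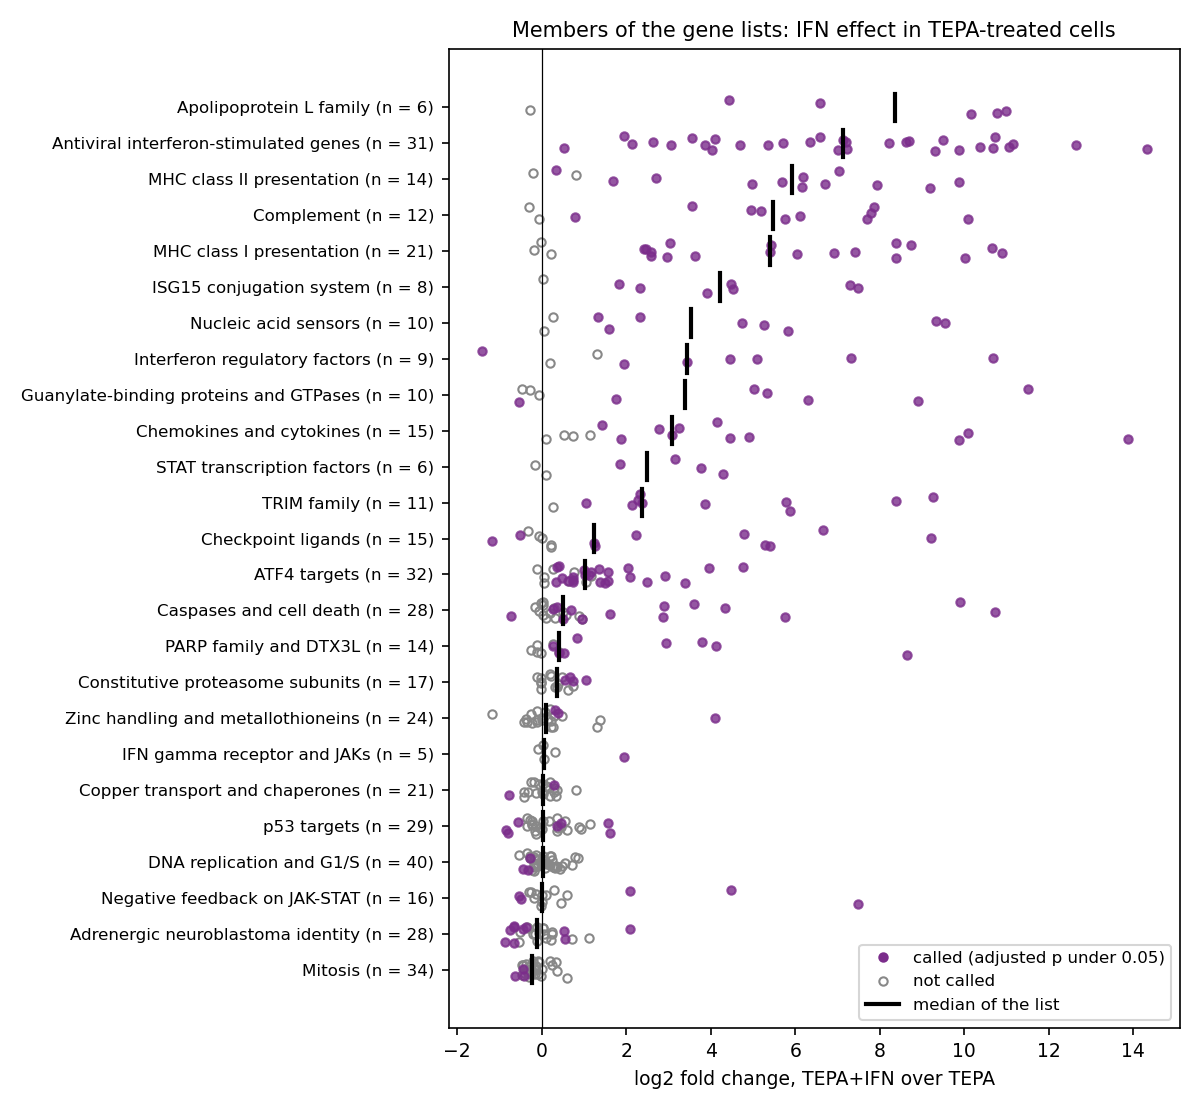
Log2 fold change (TEPA+IFN over TEPA) of each tested member of 25 gene lists, filled where called and open where not, with a bar at the list median. The antiviral, apolipoprotein L and MHC lists lie far to the right, while the receptor, metal, p53 and cell cycle lists lie around 0. Members with 0 counts in TEPA are drawn at their fitted value, which depends on the prior count.

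Genes that the stress factor ATF4 activates rose in 24 of 32 tested cases (median 1.03). ATF4 itself stood at 104, 112 and 93.6 CPM in the TEPA libraries and 218, 219 and 188 CPM in the TEPA+IFN libraries (log2 fold change 1.01, SE 0.11). ATF3 stood at 6.36, 6.34 and 4.79 CPM in the TEPA libraries and 50.1, 43.7 and 38.5 CPM in the TEPA+IFN libraries, a log2 fold change of 2.92 (adjusted p = 7.14e-09, SE 0.22). DDIT3, the stress factor CHOP, stood at 3.42, 4.06 and 2.23 CPM in the TEPA libraries and 19.3, 20.6 and 14.8 CPM in the TEPA+IFN libraries (log2 fold change 2.49, SE 0.29), CHAC1, which degrades glutathione, at 0.331, 0.743 and 0.232 CPM in the TEPA libraries and 4.82, 6.65 and 2.65 CPM in the TEPA+IFN libraries (log2 fold change 3.40, SE 0.72), and TRIB3, an inhibitor of the pathway, at 11.5, 17.7 and 10.04 CPM in the TEPA libraries and 36.2, 36.7 and 27.02 CPM in the TEPA+IFN libraries (log2 fold change 1.35, SE 0.23). ASNS, asparagine synthetase, rose by 0.74 (log2, SE 0.14) and the folate enzyme MTHFD2 by 0.75 (log2, SE 0.14), and the secreted glycoprotein gene STC2 rose by 1.50 (log2, SE 0.16). WARS, which is also an interferon target, belongs to this list and had its largest change. ATF4, DDIT3, TRIB3, ASNS, MTHFD2 and STC2 were named after their values were seen.

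Some genes of metal handling passed the test, beside 14.2% of all genes called (7.28% higher and 6.89% lower). Of 24 tested zinc genes and metallothioneins 3 rose (median 0.11), and of 21 copper genes 1 rose and 1 fell (median 0.04). MT2A, a metal-binding protein, stood at 0.147, 0.106 and 0.116 CPM in the TEPA libraries and 1.50, 2.94 and 1.99 CPM in the TEPA+IFN libraries (log2 fold change 4.10, SE 0.61), and its near-identical copies make its share uncertain. SLC31A1, the copper importer, stood at 146, 116 and 141 CPM in the TEPA libraries and 152, 152 and 147 CPM in the TEPA+IFN libraries and was not called. The zinc exporter SLC30A1 stood at 9.08, 6.18 and 9.92 CPM in the TEPA libraries and 8.62, 7.21 and 7.41 CPM in the TEPA+IFN libraries, and the zinc importer SLC39A10 at 399, 285 and 395 CPM in the TEPA libraries and 281, 251 and 273 CPM in the TEPA+IFN libraries, neither called. LOX, a copper-dependent lysyl oxidase, fell from 19.6, 18.2 and 19.96 to 10.4, 9.66 and 13.8 CPM (log2 fold change -0.77, SE 0.17). Without TEPA library 2 the counts were 3 higher and 4 lower for zinc, and 3 and 4 for copper. Of 14 iron genes 3 fell and 1 rose: ACO1, the iron-responsive aconitase, stood at 33.9, 31.5 and 30.8 CPM in the TEPA libraries and 12.3, 11.3 and 13.1 CPM in the TEPA+IFN libraries (log2 fold change -1.39, SE 0.09). TFRC, the transferrin receptor, fell by 0.59 on the log2 scale (SE 0.16), from 749.9, 554 and 760.1 to 459, 457 and 455 CPM.

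Adrenergic identity genes of neuroblastoma moved in both directions, 3 of 28 rising and 7 falling (median -0.12), beside 7.28% of all genes called higher and 6.89% lower. DDC, which makes dopamine, stood at 81.9, 88.02 and 81.9 CPM in the TEPA libraries and 41.8, 46.6 and 50.3 CPM in the TEPA+IFN libraries (log2 fold change -0.86, SE 0.08), the neuropeptide NPY at 116, 83.7 and 98.9 CPM in the TEPA libraries and 65.9, 56.6 and 54.5 CPM in the TEPA+IFN libraries (log2 fold change -0.75, SE 0.16) and the factor TFAP2B at 476, 396 and 452 CPM in the TEPA libraries and 289.9, 289 and 258 CPM in the TEPA+IFN libraries (log2 fold change -0.66, SE 0.09). RET, a receptor kinase, stood at 396, 367 and 365 CPM in the TEPA libraries and 567, 549 and 551 CPM in the TEPA+IFN libraries (log2 fold change 0.56, SE 0.08), a call lost with the GC trend removed. MYCN stood at 5.88, 4.14 and 4.47 CPM in the TEPA libraries and 3.38, 4.37 and 3.80 CPM in the TEPA+IFN libraries and was not called. DBH, dopamine beta-hydroxylase, was set apart by TEPA library 2, at 88.3, 359 and 96.6 CPM in the TEPA libraries and 185, 260.1 and 196 CPM in the TEPA+IFN libraries. Of 18 mesenchymal identity genes 5 rose and 2 fell, FN1, which encodes fibronectin, from 267, 283 and 279.8 to 906, 1002 and 1010.0 CPM (log2 fold change 1.81, SE 0.08). The matrix protein tenascin C, TNC, stood at 22.5, 59.7 and 21.2 CPM in the TEPA libraries and 133, 127 and 156 CPM in the TEPA+IFN libraries (log2 fold change 2.01, SE 0.37), again with TEPA library 2 apart from the other TEPA libraries.

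Of 29 p53 targets 4 rose and 3 fell (median 0.04), against 9 and 3 with the replicate block and 3 and 6 without TEPA library 2. Over all genes tested 7.28% were called higher and 6.89% lower. CDKN1A, the cell cycle inhibitor, stood at 54.6, 81.9 and 66.9 CPM in the TEPA libraries and 85.6, 104 and 77.4 CPM in the TEPA+IFN libraries and was not called, although TEPA libraries lay well above the untreated mean of 24.9 CPM. Mitosis genes fell in 3 of 34 cases (median -0.23) and in 15 without TEPA library 2, with the GC trend removed and with the replicate block. DLGAP5, a spindle protein, stood at 217, 172 and 211 CPM in the TEPA libraries and 128, 113 and 147 CPM in the TEPA+IFN libraries (log2 fold change -0.63, SE 0.16), and CCNB2, a mitotic cyclin, at 142, 116 and 142 CPM in the TEPA libraries and 99.05, 95.4 and 100.1 CPM in the TEPA+IFN libraries (log2 fold change -0.44, SE 0.11). Of 40 replication genes 3 fell, none past 2-fold, a share near that of all genes called lower (6.89%), and with the replicate block 7 were higher and 7 lower. In these bulk samples a fall in a gene per cell cannot be told apart from fewer cells that express it.

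The largest falls were smaller than the largest rises. By the naming rule they were MATN2, HS3ST2, MN1, SORBS2, MRAP2, LAMA3, FREM2, FAP, REPS2, PRSS35, CERK and IL6R, with log2 fold changes from -2.21 to -1.75. MRAP2, an accessory protein of melanocortin receptors, stood at 28.1, 21.1 and 27.03 CPM in the TEPA libraries and 6.87, 6.42 and 6.88 CPM in the TEPA+IFN libraries, a log2 fold change of -1.92 (adjusted p = 9e-08, SE 0.17). CERK, ceramide kinase, stood at 59.9, 75.8 and 63.1 CPM in the TEPA libraries and 17.2, 22.4 and 18.96 CPM in the TEPA+IFN libraries, a log2 fold change of -1.76 (adjusted p = 1.37e-08, SE 0.14). HS3ST2, a heparan sulfate sulfotransferase, stood at 10.7, 6.98 and 7.11 CPM in the TEPA libraries and 2.65, 1.42 and 1.46 CPM in the TEPA+IFN libraries (log2 fold change -2.16, SE 0.24), and IL6R, the receptor of interleukin 6, at 6.29, 3.66 and 4.84 CPM in the TEPA libraries and 1.99, 1.29 and 1.12 CPM in the TEPA+IFN libraries (log2 fold change -1.75, SE 0.29). The matrilin gene MATN2 stood at 2.24, 2.39 and 2.73 CPM in the TEPA libraries and 0.419, 0.695 and 0.467 CPM in the TEPA+IFN libraries (log2 fold change -2.21, SE 0.18), and LAMA3 and FREM2 fell by 1.84 and 1.83 on the log2 scale. Of 20 tested genes in the extracellular matrix list, which holds none of these 12, 5 rose and 1 fell (median 0.19). Over all genes tested 7.28% were called higher and 6.89% lower. Of 2 genes picked after their values were seen, the long noncoding RNA LINC00641 fell from 138, 101 and 131 to 11.7, 16.1 and 10.6 CPM (log2 fold change -3.27, SE 0.18) and DCX, doublecortin of migrating neurons, from 185, 136 and 199.7 to 56.2, 62.1 and 56.4 CPM (log2 fold change -1.57, SE 0.18).

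**Figure D3:**
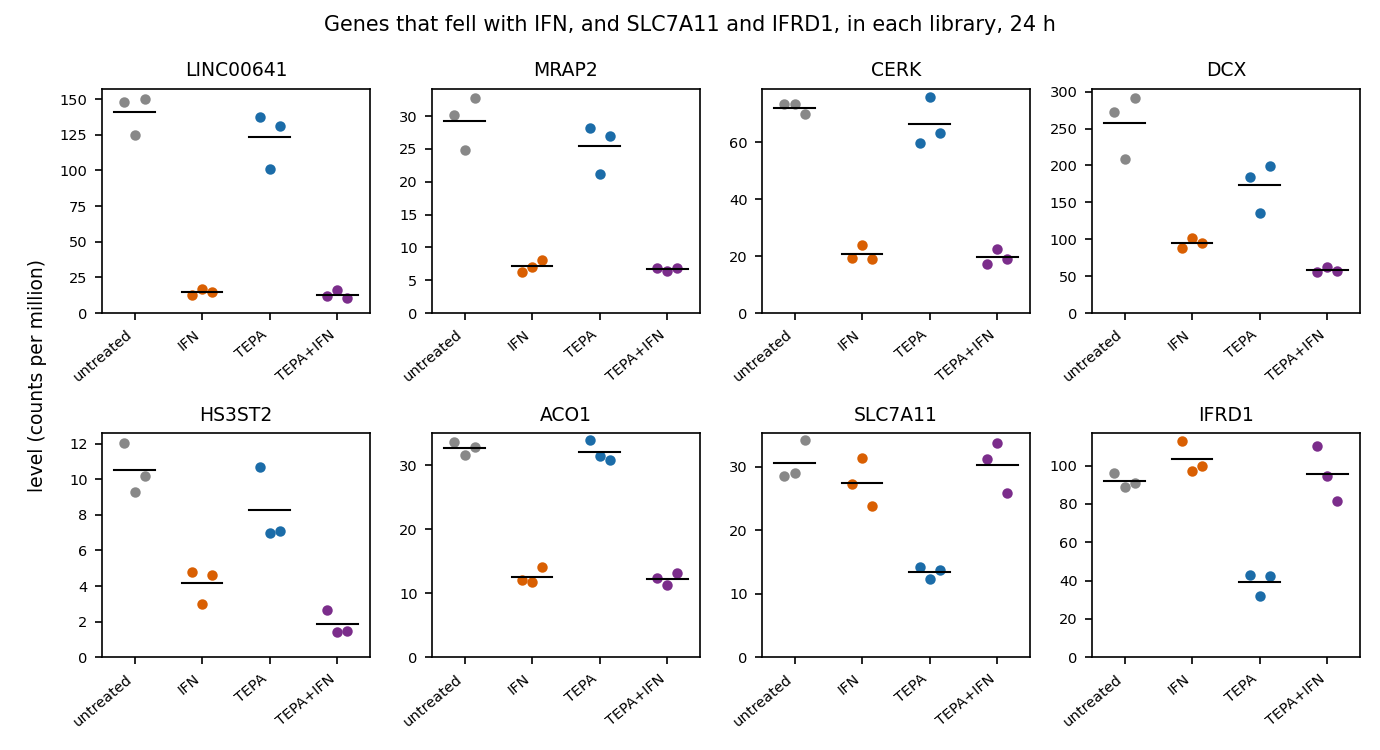
Levels of 8 genes in CPM from 0, 1 point per library and a bar at the mean of 3. The first 6 are lower with IFN both without and with TEPA. SLC7A11 and IFRD1 are low in the TEPA libraries, at 12.4 to 14.2 and 32.0 to 42.9 CPM, and lie near the untreated points when IFN was added.

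Some of the genes with large rises were neighbours among the genes tested. Of 300 annotated genes called at least 4-fold higher, 65 fell into 18 runs of 3 or more such neighbours (GENCODE 29, GRCh38), and the others did not. Genes not tested were skipped, so members of a run need not be adjacent in the genome. The run on chromosome 6 from 32439842 to 32941070 held 9 genes, HLA-DRA, HLA-DRB1, HLA-DOB, TAP2, PSMB8, PSMB8-AS1, PSMB9, TAP1 and HLA-DMB. Others held the IFIT genes (chromosome 10, 89283694 to 89421001, 5 genes), APOL1 to APOL4 (chromosome 22, 36140330 to 36267530), CXCL9, ART3, CXCL10 and CXCL11 (chromosome 4, 76001275 to 76112802), and OAS1, OAS3 and OAS2 (chromosome 12, 112906777 to 113011723). Some members, such as ART3 and PSMB8-AS1, may overlap other genes of their run. The strand setting of the counting is not given, so reads of such members may be mixed. One run had no gene of the interferon lists, FNDC5, HPCA and TMEM54 on chromosome 1 from 32862268 to 32901438, picked after values were seen. HPCA, the calcium sensor hippocalcin, stood at 0.0368, 0.0531 and 0.029 CPM in the TEPA libraries and 2.02, 1.69 and 0.56 CPM in the TEPA+IFN libraries and FNDC5 at 1.21, 1.49 and 1.25 CPM in the TEPA libraries and 8.58, 6.72 and 4.39 CPM in the TEPA+IFN libraries. The call of TMEM54 was lost without TEPA library 1 or 3 or TEPA+IFN library 2.

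Whether TEPA altered the response was asked by the difference between its IFN effect and that in cells without a chelator, a comparison over 12 libraries. No gene passed the threshold with edgeR (0 of 14654 called, 0%), DESeq2 or limma-voom, and 205 genes had an unadjusted p under 0.05 in edgeR's test. That is a smaller share than the 0.05 that evenly spread p-values would give, so the test was conservative on these libraries. Simulated 2-fold and 4-fold differences in this design were recovered in 39% and 81% of cases. The simulated counts held no GC trend or replicate pattern, so these rates may not hold for the real libraries. The difference for CD274 was 0.17 (95% interval -0.72 to 1.06) and for IRF1 -0.00 (95% interval -0.78 to 0.78) on the log2 scale. CD274 averaged 58.4 ± 12.6 CPM with TEPA and IFN and 62.6 ± 18.9 CPM with IFN alone (SD, n = 3), and IRF1 352 ± 66.3 and 348 ± 116 CPM. For both markers the intervals leave room for a change of either sign.

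IFN alone called 2761 genes, 18.8% of those tested (1471 higher, 10%, and 1290 lower, 8.8%). That count of the IFN effect without a chelator was 6703 when its own 6 libraries were fitted alone, 7252 there with the replicate block, and 1707 to 3636 with 1 library left out, and the overlaps that follow are those of the fit of all libraries. Of the genes that rose with TEPA, 934 (87.5%) also rose without it, which is 63.5% of the longer list, and 779 of the falls were shared, 77.2% and 60.4% of the 2 lists. Over all genes tested the log2 fold changes had a Pearson r of 0.912 across genes, which are not independent replicates. Among 540 genes at least 2-fold higher with TEPA the median log2 fold change was 2.42 with TEPA and 2.66 without, and 382 had a negative difference (70.7%, against 55.8% of all genes). Among 740 genes (5.05% of those tested, called and at least 2-fold higher) chosen instead on the response without a chelator, the medians were 1.68 and 2.12, a set whose choice favours a lower value with TEPA. The list medians of the difference were -0.52 for the antiviral genes (29 of 31 below 0), -0.25 for MHC class I (19 of 21) and -0.43 for the list of interferon regulatory factors with BATF2 and BATF3 (8 of 9), against -0.03 over all genes. Other lists lay nearer 0, among them the STAT genes (-0.18), the guanylate-binding proteins and GTPases (-0.07) and the checkpoint ligands (-0.05). The GC measure averaged -0.70 in untreated and 0.46 in IFN libraries, against -0.39 in TEPA and 0.42 in TEPA+IFN libraries. Its part in these medians was not tested.

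**Figure D4:**
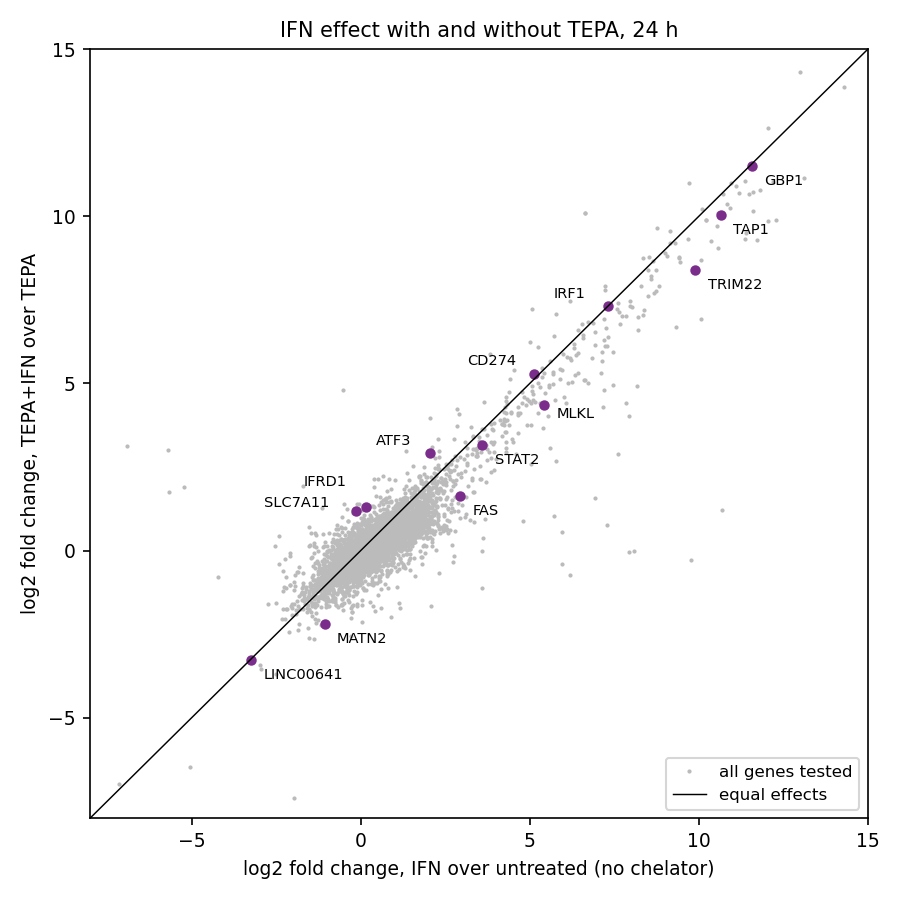
Log2 fold change with IFN in TEPA-treated cells against that in cells without a chelator, 1 grey point per gene tested, with 13 named genes and the line of equal effects. Most points follow the line (r = 0.912 across genes), FAS, MLKL and TRIM22 lie below it and SLC7A11, IFRD1 and ATF3 above it. None of the differences passed the threshold.

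Some abundant genes had a lower estimated response with TEPA, none of them called in the fit of all libraries. STAT2 averaged 554 ± 55.3 CPM with TEPA and IFN against 727 ± 89.8 CPM with IFN alone, and 62.4 ± 3.64 against 60.3 ± 1.83 CPM without IFN. STAT2 differed by -0.44 (95% interval -0.71 to -0.17) and USP18 by -0.62 (95% interval -1.02 to -0.21). SAMD9, an antiviral factor named after its value was seen, averaged 513 ± 42.96 CPM against 801 ± 53.3 with IFN alone, a difference of -0.62 (95% interval -1.11 to -0.12). With the GC trend removed 6 genes passed the threshold, among them SAMD9 with a negative difference and IFRD1, NFYA, SLC39A10 and SLC7A11 with a positive one. In the fit of all libraries the log2 fold change of NFYA was -0.42 with TEPA and -0.73 without, and that of SLC39A10 -0.42 (not called) and -0.86, so for both the value with TEPA was nearer 0.

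For MLKL, FAS and TRIM22 the estimated response was lower with TEPA, and the level in cells given TEPA alone was higher than in untreated cells. The difference in response was not called for any of these genes. MLKL averaged 3.17 ± 0.0661 CPM with TEPA and 1.48 ± 0.305 CPM in untreated cells, but 64.3 ± 6.39 and 63.8 ± 10.3 CPM once IFN was added, a difference of -1.09 (95% interval -1.56 to -0.62). FAS averaged 5.66 ± 1.66 against 1.82 ± 0.164 CPM without IFN and 17.4 ± 1.29 against 13.9 ± 2.72 CPM with it, a difference of -1.31 (95% interval -1.99 to -0.64). TRIM22 averaged 0.579 ± 0.0619 against 0.212 ± 0.102 CPM and 197 ± 21.1 against 207 ± 27.9 CPM, a difference of -1.51 (95% interval -2.34 to -0.68). Without IFN the TEPA libraries were the higher ones in all 3 genes, and with IFN the means lay closer in ratio.

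SLC7A11, the cystine importer, and IFRD1, a stress-responsive coregulator named after its value was seen, had the reverse pattern. Neither difference was called in the fit of all libraries. SLC7A11 stood at 14.2, 12.4 and 13.8 CPM in the TEPA libraries and 31.2, 33.7 and 25.96 CPM in the TEPA+IFN libraries, while untreated cells averaged 30.6 ± 3.14 CPM and cells with IFN alone 27.5 ± 3.74 CPM. The difference was 1.32 (95% interval 0.69 to 1.96), with an unadjusted p of 0.000352 in edgeR's test. IFRD1 stood at 42.9, 31.97 and 42.3 CPM in the TEPA libraries and 110.3, 94.7 and 81.7 CPM in the TEPA+IFN libraries, against 91.8 ± 3.84 CPM untreated and 103 ± 8.42 CPM with IFN alone, a difference of 1.12 (95% interval 0.60 to 1.64). In both genes the TEPA libraries alone were low, and the TEPA+IFN libraries were near the level of untreated cells. ATF3 differed by 0.88 (95% interval 0.26 to 1.50) and ATF4 by 0.46 (95% interval 0.15 to 0.77). Over the 32 ATF4 targets the median difference was 0.26, with 6 below 0.

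Cells treated with DC gave a second reference, and again no gene passed the threshold with edgeR (0 of 14654, 0%) or limma-voom. In edgeR's test 199 genes had an unadjusted p under 0.05, again a smaller share than 0.05, so this test was conservative too. DESeq2 called SLC7A11 alone. SLC7A11 averaged 56.4 ± 7.65 CPM with DC and 41.6 ± 5.77 CPM with DC and IFN, so that its IFN effect with TEPA exceeded that with DC by 1.61 (95% interval 0.97 to 2.25). The corresponding differences were 1.14 (95% interval 0.62 to 1.66) for IFRD1, 1.32 (95% interval 0.70 to 1.94) for ATF3, 0.18 (95% interval -0.72 to 1.08) for CD274 and 0.29 (95% interval -0.50 to 1.09) for IRF1. The 540 genes at least 2-fold higher with TEPA had a median difference of 0.08 from DC, and the 32 ATF4 targets one of 0.52, with 1 below 0. Median differences from DC were -0.18 for the antiviral genes (25 of 31 below 0) and -0.03 for MHC class I (11 of 21). For the list of interferon regulatory factors with BATF2 and BATF3 the median was 0.11 (4 of 9 below 0). The differences from the 2 references share the 6 TEPA libraries, so their likeness is not independent support.

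**Figure D5:**
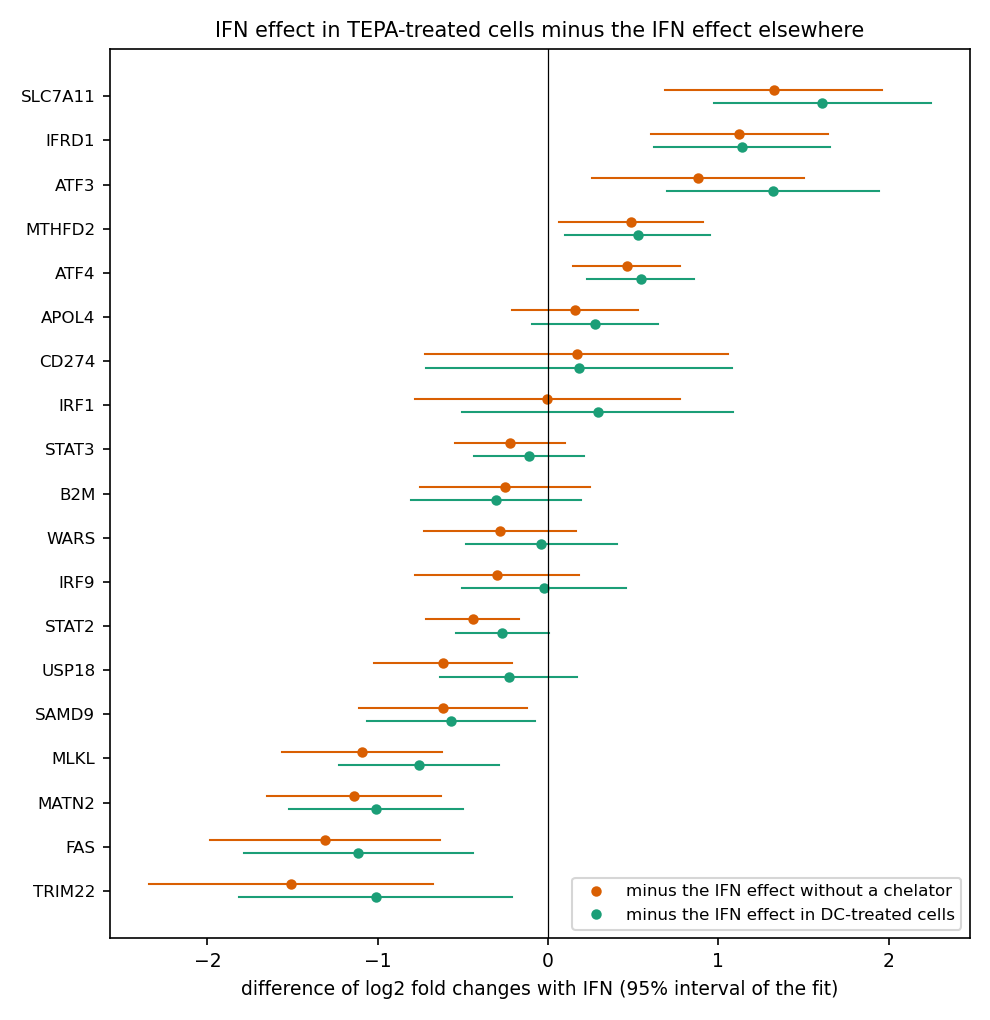
Difference between the IFN effect in TEPA-treated cells and that without a chelator (orange) or with DC (green), in log2 units with the 95% interval of the fit, for 19 genes. SLC7A11, IFRD1 and ATF3 lie above 0 in both, FAS, MLKL and TRIM22 lie below 0 in both, and the intervals of CD274 and IRF1 span 0. No difference passed the threshold over all genes.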

How the data were processed

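RNA of SH-SY5Y cells was sequenced, and the authors deposited raw counts (whole reads, not normalized) for 26485 gene symbols in 24 libraries, 8 groups of 3. STAR 2.5a and RSEM 1.2.31 and the build hg38 are named in the submitters' processing notes. The strand setting and annotation are not given in the sources used here. The table of all libraries equals the 24 lists per library, every column was used (0 left out), and no 2 columns were identical. Library totals ran from 24569980 to 35372442 counts.

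In R 4.3.3, filterByExpr of edgeR 4.0.16 (minimum count 10) kept 14654 genes, and TMM factors scaled the libraries. A quasi-likelihood model with 1 mean per group was fitted to all 24 libraries (16 residual degrees of freedom, common biological coefficient of variation 0.207). The IFN effect in TEPA-treated cells, that without a chelator, and the differences of the first from the second and from the effect in DC-treated cells were contrasts of group means, with calls where the p adjusted over all genes (Benjamini-Hochberg) was under 0.05. Each SE is the size of the log2 fold change over the square root of the F statistic of the test. The 95% intervals of fold changes and differences follow from it and include the spread between libraries. Where the TEPA libraries held only a few counts, as for HLA-B, OAS2, IFITM1 and SP100, counting error can be larger than this SE. Intervals of ratios cover counting error only, and folds from 0 counts are bounds against 3 counts over the group. On simulated counts of 14487 genes the main comparison recovered 61% of 2-fold and 92% of 4-fold changes, with 15 calls among unchanged genes, and the difference 39% and 81%, with 10. The counts were drawn from the mean level of each gene over all libraries, without an IFN effect, GC trend or replicate pattern.

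Same-numbered TEPA and TEPA+IFN libraries deviated together from their group means (correlations 0.29, 0.56 and 0.23), so the numbers pair them by the rule used, and the blocked count stands beside the main one. Library 1 did not correlate best with its own number. Library 2 had the highest GC measure in both groups (0.63 and 0.87), and its part in these correlations was not tested.

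Alternatives were DESeq2 1.42.0 (test and size factors), limma-voom (limma 3.58.1), no filter, removal of a GC trend (GC content from GENCODE 29, for 93.8% of genes tested), the libraries of the comparison alone, the block, and each library left out. Positions are GENCODE 29 on GRCh38, matched for 23925 symbols (90.3%).

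Genes named were the 12 largest rises and falls (called, mean of at least 1 CPM, no overlap of the 3 and 3 libraries, coding-style symbol), up to 4 called members of each list, the receptor, STAT, IRF and feedback genes, and a fixed set. The text gives those that stand for their group, and some genes are not reported here. The members, lists and rule were chosen with earlier results of these data known.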

Additional observations from a re-analysis of the deposited data

How the results depend on the processing

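The 2076 calls of the IFN effect in TEPA-treated cells became 2127 with DESeq2 size factors, 1832 without the filter, 2531 with DESeq2, 2114 with limma-voom, 4222 with the GC trend removed (2179 higher, 2043 lower), 1186 in the 6 libraries alone (705, 481), 4327 there with the replicate block (2584, 1743), 3752 with block and GC (2063, 1689) and 3180 there with GC alone (1739, 1441). Leaving out 1 library gave 1523 to 3456 (748 to 1373 higher, 768 to 2083 lower). The highest came without TEPA library 2, where 39.7% of calls were higher (51.4% in the fit of all libraries), and the share was 59.4% in the 6 libraries alone and 59.7% with the block. CD274 and IRF1 were called in all 15 alternatives, at 5.10 to 5.48 and 7.15 to 7.54. Of 137 genes named, 123 kept direction and side of the threshold in every alternative. In at least 1 alternative SOCS4, SOCS5, RET, PTPRC and TMEM54 lost a call and IFNGR1, IRF3, CDKN1A, SLC39A10 and SLC31A1 gained one. The IFN effect without a chelator called 4712 genes with the GC trend removed, 6703 in its own 6 libraries, 7252 there with the block, 4996 with block and GC, 5427 with GC alone, and 1707 to 3636 with 1 library left out. The difference with and without TEPA gave 6 calls with the GC trend removed, 1 with the replicate block (IFRD1), 1 with block and GC, and 0 with any library left out. The difference from DC gave 5 with the GC trend removed, 1 with DESeq2, 1 with the block (ATF3), 5 with block and GC, 2 with GC alone in its libraries, and 0 with any library left out. For these differences not every pair of same-numbered deviations correlated above 0.1, so the numbers were not taken as pairing: the values were 0.363, 0.575 and 0.232 for TEPA and untreated libraries, but -0.05, 0.27 and 0.09 for untreated and IFN libraries and 0.09, -0.30 and -0.47 for DC libraries without and with IFN. The GC fits in the libraries of each comparison alone were chosen after seeing the data.

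Signs changed for some values that were not called in the fit of all libraries. With the GC trend removed in all libraries, with block and GC, and with GC alone in the 6 libraries, IFNGR2 was at -0.25, -0.22 and -0.24, TYK2 at -0.17, -0.18 and -0.18, and SLC30A1 at 0.10, 0.11 and 0.11. DBH was at -0.07 in both GC fits without the block. With 1 library left out, the values ran from -0.07 to 0.12 for IFNGR1, -0.02 to 0.04 for IFNGR2 and -0.14 to 1.2 for DBH. The difference for IRF1 with and without TEPA was 0.07 with the GC trend removed, 0.00 with DESeq2, 0.07 with limma-voom, 0.00 using its 12 libraries alone, 0.05 there with the block, 0.11 with block and GC, 0.07 with GC alone and -0.27 to 0.24 with 1 library left out. That for CD274 ran from -0.05 to 0.38, and from -0.08 to 0.42 against DC, where WARS ran from -0.17 to 0.09 and IRF9 from -0.14 to 0.07. The cause of these changes was not tested.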

Other observations

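Lists of neuronal and metabolic genes held a few called members each, beside 14.2% of all genes called (7.28% higher and 6.89% lower). Of 24 synaptic vesicle genes tested 4 fell (median -0.14), against 4 higher and 3 lower with the replicate block, among them the vesicular monoamine transporter SLC18A2 (14.2, 9.29 and 12.97 against 6.73, 6.05 and 6.88 CPM, log2 fold change -0.89, SE 0.20) and the small GTPase RAB3B (log2 fold change -0.93, SE 0.16). Of 18 ion channel genes 2 rose and 2 fell: the calcium-activated potassium channel KCNMA1 stood at 3.38, 3.45 and 3.45 CPM in the TEPA libraries and 10.3, 13.4 and 12.6 CPM in the TEPA+IFN libraries (log2 fold change 1.82, SE 0.19), and the M-current channel KCNQ3 at 19.9, 13.4 and 17.1 CPM in the TEPA libraries and 6.11, 6.65 and 5.73 CPM in the TEPA+IFN libraries (log2 fold change -1.44, SE 0.18). The receptor kinase KIT fell from 14.2, 9.74 and 13.6 to 6.45, 5.13 and 5.32 CPM (log2 fold change -1.15, SE 0.18). Of 27 respiratory chain genes 2 rose (median 0.17), against 10 higher and 1 lower with the replicate block and 2 higher and 4 lower without TEPA library 2. NDUFA9 of complex I rose from 62.7, 59.6 and 59.98 to 92.1, 87.2 and 89.6 CPM (log2 fold change 0.56, SE 0.06). Of 24 oxidative stress genes 1, SLC7A11, rose and 1, the catalase gene CAT, fell (36.4, 35.4 and 37.3 against 26.4, 26.5 and 28.1 CPM, log2 fold change -0.43, SE 0.07).

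In a list of cytokine receptors held to be induced by IFN, 4 of 8 tested members rose (median 0.83), beside 7.28% of all genes called higher. Since the list was made of such receptors, its count is a description only. Of its 15 members 7 were not tested, and 1 tested member had 0 counts in TEPA and could only come out higher. The oncostatin M receptor OSMR was among those that rose (6.43, 4.09 and 6.76 against 14.2, 12.3 and 12.2 CPM, log2 fold change 1.16, SE 0.19). Cholesterol and fatty acid genes were called in 2 of 32 cases, both lower (median 0.03), a share near the 6.89% of all genes called lower. The counts were 5 higher and 5 lower with the replicate block, 1 and 5 without TEPA library 2, and none in the 6 libraries alone. Ribosomal protein genes were called in 2 of 30 cases, both lower (median 0.15), again near that share. With the block 12 were higher and 4 lower, and without TEPA library 2 none was higher and 7 were lower. For both lists the balance of higher and lower calls changed with the fit.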
